A study of Mus musculus with 8 samples.

Results

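The redox and glutathione enzymes described here are 50 genes of the 14033 symbols in the authors' deposited table. They were chosen by symbol: glutathione peroxidases (Gpx), peroxiredoxins (Prdx), superoxide dismutases (Sod), glutaredoxins (Glrx), thioredoxins, their reductases and thioredoxin-domain proteins (Txn, Txnrd, Txndc), and glutathione S-transferases (Gst). Txnip, Cat, Gclc, Gclm, Gsr, Gss, Nqo1, Keap1 and Nfe2l2 complete the set. Each of the 50 symbols had 1 row. A further 16 protein-coding symbols of the same families in the RefSeq gene table, among them Gpx8, Sod3 and Gstt1, were not analysed here.

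RNA was measured in mouse fetal liver at E14.5, in cells sorted as lineage-negative and positive for Kit and Sca1. The sample titles also name CD150, with no sign after it. All embryos came from a Flt3-Cre strain crossed with mTmG mice, whose cells make the red protein Tomato until Cre activity switches them permanently to GFP. The GFP+ fraction (4 libraries) therefore holds cells with a history of Cre expressed from Flt3, and the Tomato+ fraction (4 libraries) holds cells without that recombination. The labels do not say whether the 4 libraries of a fraction came from separate embryos, litters or sorts, so the authors' p-values may reflect technical spread. The table holds the mean normalized count of each fraction, the ratio of the means and p-values, and no value for any library, so neither the depth per library nor a standard deviation can be given. Ratios are given as GFP+ over Tomato+, and a gene is called where the authors' adjusted p is under 0.05. A call does not follow the size of the ratio alone, and the settings of the authors' model are not known here. Cpox was called at a log2 ratio of 0.024, with an authors' adjusted p of 0.0139. Klf1 was not called at a log2 ratio of -0.46, with an authors' unadjusted p of 0.735.

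Glutathione peroxidases, peroxiredoxins and catalase remove peroxides, while superoxide dismutases make hydrogen peroxide from superoxide. Glutathione and thioredoxin supply the electrons for the glutathione peroxidases and peroxiredoxins, and both are kept reduced at the expense of NADPH. The transcription factor Nrf2, held in check by Keap1, drives many of these genes under oxidative stress. In the blood system, hematopoietic stem cells are known for low levels of reactive oxygen species, and red cell precursors for high levels of peroxidases that protect hemoglobin-rich cells.

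The peroxide-removing enzymes Gpx1 and Prdx2 and the mitochondrial glutaredoxin Glrx5 rose in GFP+ cells, by 1.31-fold to 1.42-fold per the authors' deposited table, and the thioredoxin inhibitor Txnip and the transferase Gstm1 fell, by 1.44-fold and 1.78-fold. No other member passed the threshold. The 5 calls, 3 higher and 2 lower, make up 10% of the 50 members, near the 7.49% of all 14268 rows that were called. By direction, 4.86% of all rows were called higher and 2.64% lower in GFP+. At the authors' unadjusted p under 0.05 there were 9 members, 6 higher and 3 lower, against 16.2% of all rows. The set as a whole therefore held about as many calls as the table, and its median log2 ratio was 0.060, against 0.0095 over all rows. A lower mean in this bulk RNA can come from fewer cells of a type or from less RNA per cell, which cannot be told apart.

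**Figure D1:**
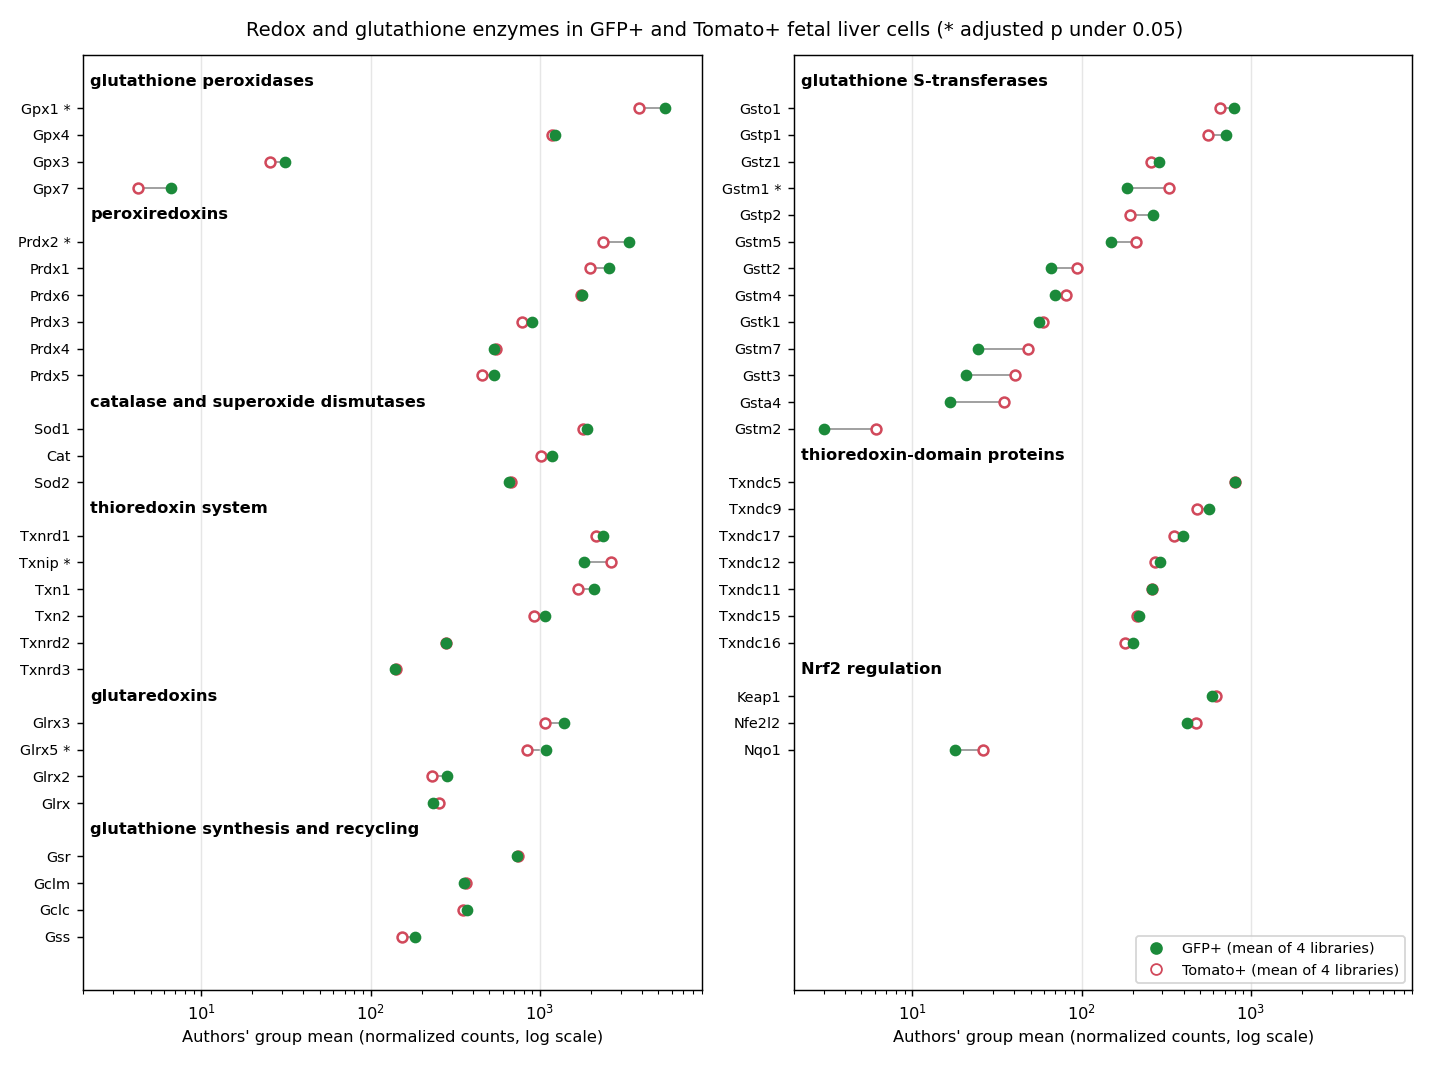
Authors' mean normalized counts of the 50 members in GFP+ (filled green) and Tomato+ (open red) cells on a log axis, grouped by role, with an asterisk for an adjusted p under 0.05. The 5 called genes are Gpx1, Prdx2 and Glrx5, higher in GFP+, and Txnip and Gstm1, lower in GFP+; no error bars can be drawn since the table holds means only.

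Among the glutathione peroxidases, Gpx1, the main cytosolic enzyme that reduces hydrogen peroxide with glutathione, was the most abundant member of the set. The mean normalized count was 5459 in GFP+ and 3832 in Tomato+ cells, a 1.42-fold rise with a log2 ratio of 0.51 and an adjusted p of 2.78e-06 per the authors' deposited table. Gpx4, which reduces lipid peroxides in membranes and guards against ferroptosis, had nearly equal authors' means of 1222 in GFP+ and 1180 in Tomato+, with an adjusted p of 0.656. The secreted Gpx3 and the endoplasmic reticulum enzyme Gpx7 were scarce, at 31.3 and 6.65 in GFP+ and 25.3 and 4.19 in Tomato+ per the authors' deposited table, and neither was called. All 4 log2 ratios of the family were above 0, and that of Gpx4 turned to -0.11 when both fractions were scaled to the same total. That scaling lowers every log2 ratio by 0.16, and each member's direction below is given with it where it changes.

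Of the 6 peroxiredoxins, thiol peroxidases most of which pass electrons from thioredoxin to peroxides, 1 was called. Prdx2, a cytosolic form very abundant in red cells, averaged 3351 in GFP+ and 2361 in Tomato+ cells, 1.42-fold higher, with a log2 ratio of 0.51 and an adjusted p of 5.74e-06 per the authors' deposited table. The similar cytosolic enzyme Prdx1 averaged 2565 in GFP+ and 1983 in Tomato+, and its log2 ratio of 0.37 did not pass, with an adjusted p of 0.0867 per the authors' deposited table. The mitochondrial Prdx3 had 900.0 and Prdx5 531 in GFP+, against 787 and 455 in Tomato+ per the authors' deposited table. Prdx4 of the endoplasmic reticulum and the cytosolic Prdx6 had log2 ratios of -0.050 and 0.023. The family's median log2 ratio was 0.21, or 0.051 with equal totals, where 4 of the 6 members instead of 5 lay above 0. Exons of Prdx2 overlap those of Rnaseh2a on the opposite strand in the GENCODE annotation, and the sources used here do not say whether reads were counted by strand. Rnaseh2a itself had authors' means of 523 in GFP+ and 492 in Tomato+ with an adjusted p of 0.870.

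None of the 3 genes for catalase and superoxide dismutases was called. Sod1, the cytosolic copper-zinc enzyme, averaged 1891 in GFP+ and 1803 in Tomato+ cells, 1.05-fold with a log2 ratio of 0.069 and an adjusted p of 0.839 per the authors' deposited table. The peroxisomal catalase Cat had 1174 in GFP+ and 1016 in Tomato+ per the authors' deposited table, and the mitochondrial manganese enzyme Sod2 had 654 in GFP+ and 676 in Tomato+. Their log2 ratios were 0.21 and -0.048, with unadjusted p-values of 0.0968 and 0.637 per the authors' deposited table. With equal totals the ratio of Sod1 turned to -0.088, and that of Cat stayed above 0 at 0.051. No member of the group therefore came near the size of the Gpx1 and Prdx2 differences.

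In the thioredoxin system the inhibitor moved and the carriers did not pass. Txnip, an arrestin-like protein that binds reduced thioredoxin and curbs glucose uptake, averaged 1818 in GFP+ and 2618 in Tomato+ cells, 1.44-fold lower in GFP+, with a log2 ratio of -0.53 and an adjusted p of 0.00374 per the authors' deposited table. Cytosolic thioredoxin, Txn1, averaged 2078 in GFP+ and 1675 in Tomato+ per the authors' deposited table, with a log2 ratio of 0.31, an unadjusted p of 0.0101 and an adjusted p of 0.104. The mitochondrial Txn2 had 1069 in GFP+ and 926 in Tomato+ per the authors' deposited table. Of the selenoprotein reductases that recharge thioredoxin, the cytosolic Txnrd1 had the highest overall mean count of the system, not corrected for length. It averaged 2365 in GFP+ and 2144 in Tomato+, 1.10-fold with a log2 ratio of 0.14 and an adjusted p of 0.696 per the authors' deposited table, and the ratio turned to -0.015 with equal totals. The mitochondrial Txnrd2 and the testis-enriched Txnrd3 had log2 ratios of 0.0029 and -0.031. As deposited, Txnip was the only gene of the 6 lower by more than 0.1 on the log2 scale, and with equal totals Txnrd2 and Txnrd3 were too, at -0.15 and -0.19.

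The sequence upstream of Txnip is shown because it holds the tandem element through which the glucose-responsive Mondo and Mlx factors act on this gene. The run gives the 250 bases before the RefSeq start, chr3:96557707-96557956 of build GRCm38.p6 on the plus strand, with the carbohydrate response element in capitals. It was searched as CACGAG, any 5 bases and CACGAG again.
Txnip upstream: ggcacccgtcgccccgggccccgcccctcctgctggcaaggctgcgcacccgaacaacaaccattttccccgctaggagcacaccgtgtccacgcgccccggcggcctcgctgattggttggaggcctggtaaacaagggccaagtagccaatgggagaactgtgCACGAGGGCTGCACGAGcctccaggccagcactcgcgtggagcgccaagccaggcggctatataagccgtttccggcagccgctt
The element starts 85 bases before the RefSeq start. Searched on both strands with these exact letters, it was found in 1 of 32851 upstream windows of all genes, that of Txnip, or 0.00304%; it was searched because it is known from this gene. A match of letters is a description and does not show that a factor bound there in these cells. Exons of the long RNA gene Gm15441 overlap Txnip on the opposite strand in the GENCODE annotation.

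Of the 4 glutaredoxins, small proteins that reduce protein-glutathione mixed disulfides or carry iron-sulfur clusters, 1 rose. Glrx5, a mitochondrial carrier of iron-sulfur clusters needed for heme synthesis in red cell precursors, averaged 1089 in GFP+ and 834 in Tomato+ cells, 1.31-fold higher, with a log2 ratio of 0.38 and an adjusted p of 0.00282 per the authors' deposited table. Glrx3, a cytosolic iron-sulfur protein and the most abundant of the family, averaged 1384 in GFP+ and 1074 in Tomato+, 1.29-fold with a log2 ratio of 0.37 per the authors' deposited table. Although close to Glrx5 in size, it did not pass, with an unadjusted p of 0.0205 and an adjusted p of 0.175 per the authors' deposited table. The mitochondrial Glrx2 had 284 in GFP+ and 230 in Tomato+ with an adjusted p of 0.956 per the authors' deposited table. The cytosolic Glrx, the classical dithiol enzyme, had 233 in GFP+ and 252 in Tomato+, the only log2 ratio of the family under 0, at -0.11.

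Glutathione synthesis and recycling did not differ by the authors' test. The catalytic and modifier subunits of glutamate-cysteine ligase, Gclc and Gclm, which set the rate of synthesis, had authors' means of 372 and 355 in GFP+ and 349 and 367 in Tomato+. Their log2 ratios were 0.090 and -0.045, and their adjusted p-values 0.913 and 0.954 per the authors' deposited table. Glutathione synthetase, Gss, had 183 in GFP+ and 152 in Tomato+ with a log2 ratio of 0.27 and an adjusted p of 0.545 per the authors' deposited table. Glutathione reductase, Gsr, the most abundant of these genes, averaged 727 in GFP+ and 743 in Tomato+, 0.978-fold with a log2 ratio of -0.032 and an adjusted p of 1 per the authors' deposited table. With equal totals 3 of the 4 ratios, all but that of Gss, lay below 0.

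The 13 glutathione S-transferases, which join glutathione to electrophiles, split by class. All 8 genes of the mu, theta and alpha classes had lower means in GFP+, with a median log2 ratio of -0.90 and a range from -1.06 to -0.21, although only Gstm1 was called. The pi genes Gstp1 and Gstp2 and the omega gene Gsto1 had higher means in GFP+, and none was called. All 11 of these directions were the same with equal totals. The zeta gene Gstz1 had a log2 ratio of 0.15, which turned to -0.0050 with equal totals, and the kappa gene Gstk1 had -0.080 before that scaling. This division by class was made after the values were seen and has no test.

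Gstm1, a major mu class enzyme, averaged 185 in GFP+ and 329 in Tomato+ cells, 1.78-fold lower in GFP+, with a log2 ratio of -0.83 and an adjusted p of 0.0197 per the authors' deposited table. The other mu class genes were not called. Gstm5 had 149 in GFP+ and 211 in Tomato+, and Gstm4 had 69.5 and 80.5 in GFP+ and Tomato+ per the authors' deposited table. Gstm7 had 24.4 in GFP+ and 47.9 in Tomato+ with an unadjusted p of 0.0290 and an adjusted p of 0.218 per the authors' deposited table. All Gstm genes are neighbours in 1 cluster of 7 with no other protein-coding gene between them in RefSeq, and they resemble each other, so the authors' counting could have divided reads among them in ways not known here. The 5 measured Gstm genes had summed means of 430 in GFP+ and 674 in Tomato+, a ratio of 0.639.

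At least 1 on the log2 scale in either direction was reached by 2 members, Gsta4 and Gstm2, against 9.71% of all rows. Gsta4, an alpha class enzyme that detoxifies the lipid peroxidation product 4-hydroxynonenal, averaged 16.6 in GFP+ and 34.6 in Tomato+ cells, 2.08-fold lower in GFP+, with a log2 ratio of -1.06 and an adjusted p of 0.501 per the authors' deposited table. Gstm2 averaged 3.02 in GFP+ and 6.07 in Tomato+, 2.01-fold lower in GFP+, with a log2 ratio of -1.01 and an adjusted p of 0.979 per the authors' deposited table. Both have overall means under 50, a band in which 4.19% of all rows were called. The theta genes Gstt3 and Gstt2 had 20.8 and 65.8 in GFP+ and 40.6 and 93.3 in Tomato+ per the authors' deposited table, with adjusted p-values of 0.339 and 0.823.

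The omega and pi class genes had log2 ratios above 0. Gsto1, whose enzyme reduces dehydroascorbate and removes glutathione from proteins, had the highest mean count of the transferases, not corrected for length, at 795 in GFP+ and 660 in Tomato+, 1.20-fold with a log2 ratio of 0.27 and an adjusted p of 0.482 per the authors' deposited table. Gstp1 averaged 711 in GFP+ and 559 in Tomato+ with an adjusted p of 0.403, and Gstp2 averaged 265 in GFP+ and 193 in Tomato+ with an adjusted p of 0.389 per the authors' deposited table. Gstp1 and Gstp2 are near-identical genes, so the division of reads between them is uncertain. Together they summed to 977 in GFP+ and 752 in Tomato+, a ratio of 1.30.

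None of the 7 thioredoxin-domain proteins was called, and their log2 ratios ran only from -0.0077 to 0.24. Txndc5, a disulfide isomerase of the endoplasmic reticulum with the highest mean count of them, averaged 806 in GFP+ and 810 in Tomato+ cells, 0.995-fold with a log2 ratio of -0.0077 and an adjusted p of 1 per the authors' deposited table. The widest difference was that of Txndc9, a partner of the chaperonin that folds tubulin and actin, with 564 in GFP+ and 478 in Tomato+ and an adjusted p of 0.723 per the authors' deposited table. Txndc11, Txndc12, Txndc15, Txndc16 and Txndc17 had log2 ratios of -0.0053, 0.092, 0.044, 0.17 and 0.18 per the authors' deposited table. With equal totals 3 of the 7 instead of 5 lay above 0, those of Txndc9, Txndc16 and Txndc17.

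None of the 3 genes of Nrf2 regulation was called, and all 3 had lower means in GFP+. These are RNA levels, and the Nrf2 protein was not measured. Nfe2l2, which encodes Nrf2, averaged 418 in GFP+ and 473 in Tomato+ with a log2 ratio of -0.18 and an adjusted p of 0.917 per the authors' deposited table. Keap1, the adaptor that delivers Nrf2 for degradation with the highest mean count of the 3, averaged 585 in GFP+ and 625 in Tomato+, 0.936-fold with a log2 ratio of -0.095 and an adjusted p of 0.993 per the authors' deposited table. Nqo1, a quinone reductase widely used as a readout of Nrf2, was scarce, at 17.8 in GFP+ and 26.3 in Tomato+, with a log2 ratio of -0.57 and an unadjusted p of 0.828 per the authors' deposited table. The 3 directions were the same with equal totals.

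Nrf2 and its small Maf partners bind the antioxidant response element, whose core TGACNNNGC was searched on both strands in the 250 bases before each RefSeq start. It was found in 9 of the 62 upstream windows of the 45 members in the RefSeq promoter table, against 3338 of the 32851 windows of all genes, or 10.2%. The 9 genes are Gclm, Gstm5, Gstm7, Nfe2l2, Prdx1, Sod1, Txndc5, Txndc11 and Txnrd1, and no called member is among them. The sites of 4 members are shown because Gclm, Prdx1 and Txnrd1 are textbook Nrf2 targets, and Gstm5 is a neighbour of the called Gstm1. Each is read on the gene's own strand in build GRCm38.p6, with 6 bases on each side and the core in capitals, which appears as its reverse complement where the match is on the other strand.
Gclm site, chr3:122245417-122245437, plus strand: ccgggcGCACCGTCAactctc
Prdx1 site, chr4:116685460-116685480, plus strand: gaaagcGCTGAGTCAtccccc
Txnrd1 site, chr10:82859108-82859128, plus strand: atttttGCTTTGTCAttctga
Gstm5 site, chr3:107895806-107895826, plus strand: gcccacTGACCACGCggaggg
In Prdx1 the core overlaps a match to the AP-1 motif TGAGTCA, which 4.46% of all windows held. The log2 ratios of these 4 genes were -0.045, 0.37, 0.14 and -0.50, so genes with a core lay on both sides of 0. A core in this window says nothing of whether Nrf2 bound it.

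Levels can be compared between genes only per length, here as normalized counts per kb of exon in GENCODE M21. On that scale Gpx1 led in both fractions, with 5093 per kb in GFP+ and 3575 in Tomato+, followed by Sod1 with 2950 in GFP+ and 2812 in Tomato+. Next came Txn1 with 1977 in GFP+ and 1594 in Tomato+, and Prdx2 with 1808 in GFP+ and 1273 in Tomato+. Prdx1 followed with 1008 per kb in GFP+, and Gpx4 with 961. In Tomato+ cells Gpx4 and Txnip, with 928 and 926 per kb, stood before Prdx1 with 780. No spread between libraries is known, so neighbours in this order cannot be called different, and the GENCODE exons are not those of the authors' mm9 gene models.

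The members' differences went with their level. Of the 22 members with an overall mean of at least 500, 16 had higher means in GFP+ and the median log2 ratio was 0.20, whereas the 28 members below it had 13 higher and a median of -0.018. With equal totals 12 of the 22 and 8 of the 28 lay above 0, with medians of 0.043 and -0.175. Across the 50 members the log2 ratio and the overall mean had a Spearman rho of 0.45 and Pearson r of 0.50 with the log2 mean, given as descriptions, since all points come from the same 8 libraries. Across all 14268 rows the same values were 0.23 and 0.16. The rows of the table with an overall mean from 2000 to 5000 had a median log2 ratio of 0.18, with 16.0% called higher and 1.35% called lower. Of the 5 members in that band, Gpx1 and Prdx2 were called higher and Txnip lower. Relative to the band's median, Gpx1 stood at 0.33, Prdx2 at 0.32 and Txnip at -0.71 on the log2 scale, and Glrx5, in the band from 500 to 1000, stood at 0.33. This comparison within bands was chosen after seeing the data. Txnip thus lay farther from rows of its own level than from 0, and the enzymes that rose lay nearer to theirs.

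**Figure D2:**
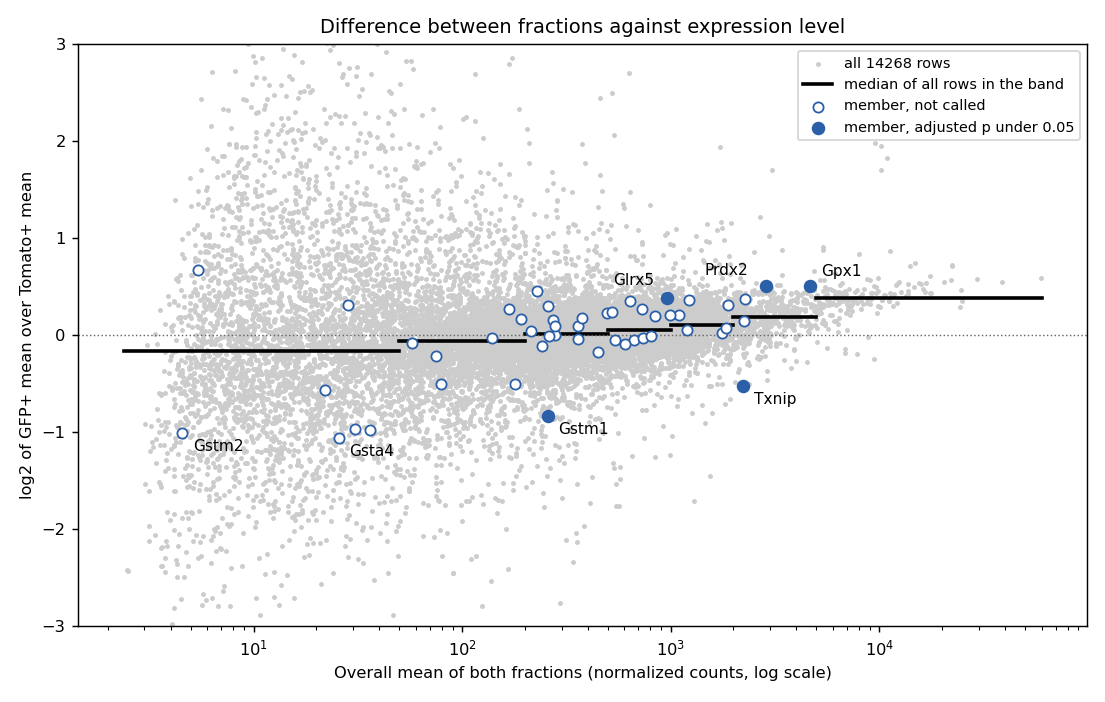
Log2 of the GFP+ over the Tomato+ mean against the overall mean (log axis) for all rows (grey), members (circles, filled where the adjusted p is under 0.05) and the median of all rows in each band of level (black lines); 53 rows beyond 3 on the log2 scale are not drawn. The band medians climb from -0.17 to 0.38, Gpx1, Prdx2 and Glrx5 lie above the median of their bands, and Txnip and Gstm1 lie below.

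Most markers of other fetal liver cells moved in the same direction as Gpx1, Prdx2 and Glrx5. Of 16 measured erythroid markers 13 were called higher and 0 lower, and the summed means of the 16 were 46126 in GFP+ and 17522 in Tomato+. The other 3, Epor, Klf1 and Car1, had lower means in GFP+, with log2 ratios of -0.89, -0.46 and -0.93, and were not called. With equal totals the log2 ratio of Rhag, 1 of the 13 called, turned to -0.0085. The highest means were those of the globin genes Hbb-b1 and Hba-a2, at 15589 and 16122 in GFP+ and 4780 and 4190 in Tomato+ per the authors' deposited table. Both lie in the band with an overall mean of at least 5000, where 69.3% of all rows were called higher. Of 19 hepatoblast markers 15 were higher and 0 lower, with sums of 4230 in GFP+ and 2243 in Tomato+; the highest means were those of Dlk1 with log2 -0.29, not called, and Afp with 2.49. Of 16 macrophage markers 11 were higher and 0 lower, with sums of 2626 in GFP+ and 1399 in Tomato+; the highest means were those of Lyz2 with log2 -0.21, not called, and Csf1r with 1.23. Log2 ratios under 0 were held by 3 of the 19 hepatoblast markers and 2 of the 16 macrophage markers, or 3 of the 16 with equal totals. No marker of these lists was at 0 in either fraction. Gpx1, Prdx2 and Glrx5 are abundant in red cell precursors, and the part of such cells in their differences was not tested. Among the sort markers, Kit averaged 4087 in GFP+ and 4950 in Tomato+, Ly6a (Sca1) 59.5 and 70.1, and Slamf1 (CD150) 27.9 and 119, in GFP+ and Tomato+ per the authors' deposited table.

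Genes of related functions, from NADPH and cysteine supply to Nrf2 targets and oxidant sources, were read from 7 related lists. These held 107 measured genes, none of them a member. Of the 107, 13 were called higher and 1 lower, against 4.86% and 2.64% of all rows. The share of rows called higher differs from band to band, and the median overall mean of these 107 genes was 385. Among all rows with an overall mean from 200 to 500, 2.98% were called higher and 3.27% lower. Among those from 2000 to 5000, 16.0% were called higher and 1.35% lower. Among those of at least 5000, 69.3% were called higher and 0% lower, with a median log2 ratio of 0.38. Of 15 genes listed under NADPH supply 2 rose and 0 fell, and not every one of them encodes an enzyme that makes NADPH. Taldo1, transaldolase of the non-oxidative branch of the pentose phosphate pathway, which itself makes no NADPH, had 1595 in GFP+ and 1186 in Tomato+. Idh2, the mitochondrial NADP-dependent isocitrate dehydrogenase, had 2813 in GFP+ and 2097 in Tomato+ per the authors' deposited table. Their adjusted p-values were 0.0111 and 0.0485 per the authors' deposited table. G6pdx and Pgd, whose enzymes make NADPH in the pentose phosphate pathway, had log2 ratios of 0.25 and 0.17. Neither was called, with adjusted p-values of 0.729 and 0.866 per the authors' deposited table. The list's median log2 ratio was 0.17, or 0.016 with equal totals.

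Of 20 genes of cysteine supply and glutathione turnover 2 rose and 0 fell, against 4.86% and 2.64% of all rows. Slc7a11, the cystine transporter that limits glutathione synthesis in many cells, averaged 161 in GFP+ and 79.1 in Tomato+, 2.03-fold higher with an adjusted p of 0.0109 per the authors' deposited table. Its partner chain Slc3a2 had 1223 in GFP+ and 996 in Tomato+ and did not pass, with an adjusted p of 0.447 per the authors' deposited table. The mitochondrial glutathione carrier Slc25a39 averaged 957 in GFP+ and 727 in Tomato+, 1.32-fold higher with an adjusted p of 0.0148 per the authors' deposited table. A related mitochondrial glutathione carrier, Slc25a40, had a log2 ratio of -0.34 and was not called, with an adjusted p of 0.801 per the authors' deposited table.

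Of 22 further Nrf2 targets and partners 6 rose and 0 fell, against 4.86% and 2.64% of all rows. Of the 22, 7 also stand in another list, among them the called Slc7a11 and Taldo1, which were counted above. Hmox1, heme oxygenase, averaged 332 in GFP+ and 76.2 in Tomato+, 4.36-fold higher with an adjusted p of 8.57e-16 per the authors' deposited table. The ferritin light chain Ftl1 had 6498 in GFP+ and 4397 in Tomato+ with an adjusted p of 6.26e-05 per the authors' deposited table. Its overall mean of 5447 lies in the band of at least 5000, where 69.3% of all rows were called higher. Hmox1 and ferritin are also genes of iron-handling macrophages, whose markers were higher in GFP+ as given above, and that part was not tested. The list's median log2 ratio was 0.16, and -0.00017 with equal totals.

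Of 13 genes of NADPH oxidase and other oxidant sources 3 rose and 0 fell, where 4.86% of all rows were called higher and 2.64% lower. Ncf1 and Cybb, the p47phox and gp91phox subunits of the phagocyte oxidase, had 936 and 76.3 in GFP+ and 337 and 28.1 in Tomato+, with adjusted p-values of 2.42e-14 and 0.0119 per the authors' deposited table. Macrophage markers moved the same way, and their part was not tested. Of 17 other peroxide and thiol repair genes 2 rose and 0 fell, the microsomal transferase Mgst3 with 276 in GFP+ and 195 in Tomato+, and Park7 with 2056 in GFP+ and 1503 in Tomato+ per the authors' deposited table. The list of selenoprotein synthesis and other selenoproteins had 13 measured genes, of which 0 rose and 1 fell. The endoplasmic reticulum selenoprotein Sepn1 had 271 in GFP+ and 395 in Tomato+, with an adjusted p of 0.0323 per the authors' deposited table. Sephs2, which makes the selenium donor, had 996 in GFP+ and 853 in Tomato+ and an adjusted p of 0.502 per the authors' deposited table. None of 14 endoplasmic reticulum thiol isomerases was called by DESeq, with 2 at an unadjusted p under 0.05, Tmx4 with a log2 ratio of -0.49 and Pdia6 with 0.33 per the authors' deposited table.

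**Figure D3:**
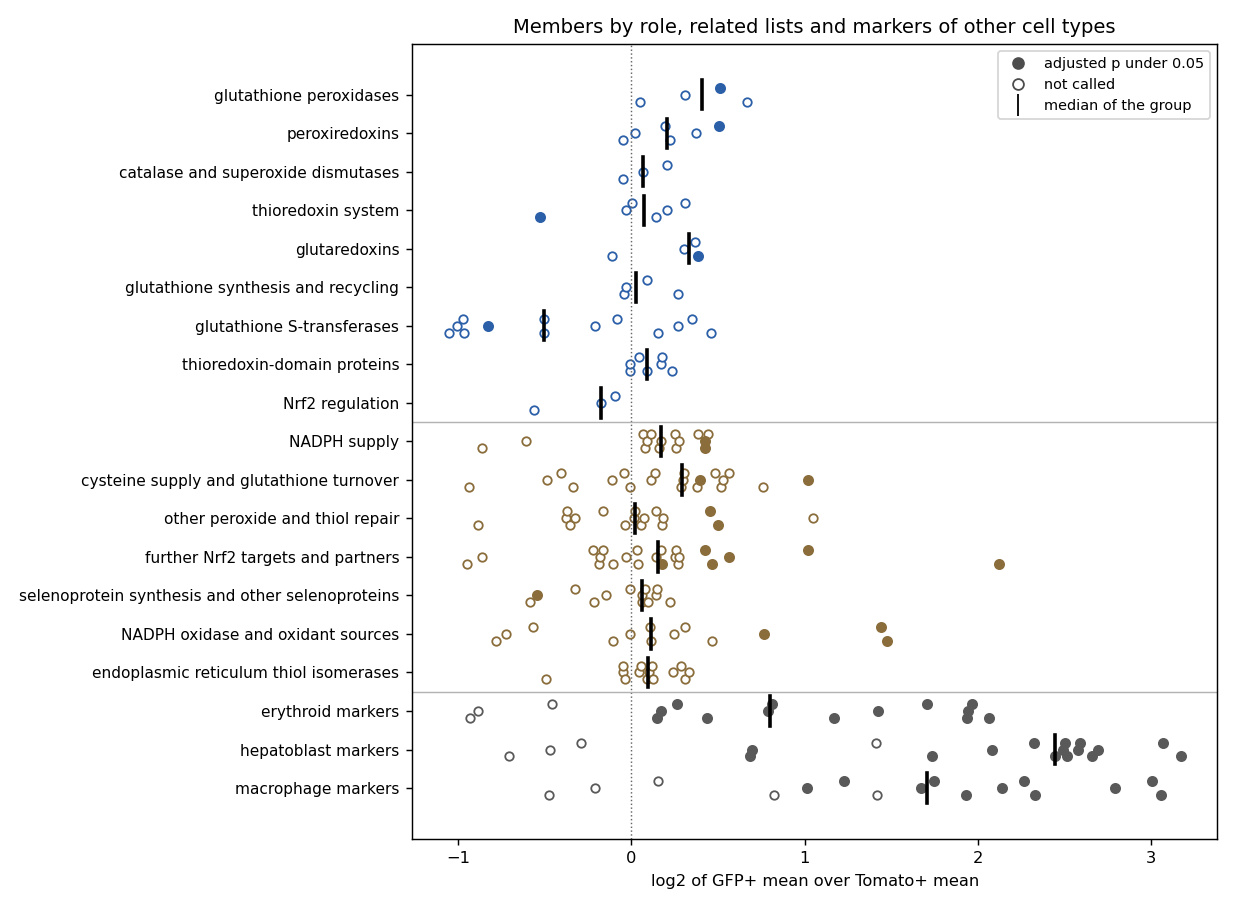
Log2 of the GFP+ over the Tomato+ mean for each member by role (blue), each gene of the 7 related lists (brown) and markers of other fetal liver cells (grey), filled where the authors' adjusted p is under 0.05, with a black bar at each group's median. Members lie between -1.06 and 0.67 with 5 filled, and most erythroid, hepatoblast and macrophage markers are filled and lie to the right.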

How the data were processed

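The authors deposited 1 table of their comparison of the GFP+ and Tomato+ fractions, with 14268 rows and a repeated header line that was dropped. Per the submitters' processing notes, the tools were DESeq, bedtools, TopHat, TopHat2 2.0.11 and Bowtie2 2.2.1 and the build mm9; the notes used here give no roles or settings. Per the file headers, the authors' signal is a baseMean, a count normalized by library and averaged over a fraction. The deposited fold change is the ratio of Tomato+ over GFP+, checked against the means within a relative 7.8e-07, and the deposited log2 fold change is its log2 value; both were turned here to GFP+ over Tomato+. The authors' adjusted p-value equalled a Benjamini-Hochberg adjustment of the deposited p-values over all rows within 5.3e-08. The planned test on counts per library needs values per library, so the authors' test was read instead, over all rows.

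The members and lists were chosen with earlier results of these data known. Full values are given for called members, for the member with the highest overall mean of each role and for members with at least 1 on the log2 scale, and the 2 smallest p-values of each related list, and the 2 highest means of each marker list of other cells, are named; other genes were chosen after their values were seen. Sequences are from RefSeq (GRCm38.p6) and exon lengths from GENCODE M21, matched by symbol for 45 and 50 members. The counting step was tested on simulated data. Tables were handled with Python 3.11.15 and pandas 2.3.3.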

Additional observations from a re-analysis of the deposited data

How the results depend on the processing

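No paired analysis was possible because only fraction means were given, without single libraries. The edgeR and DESeq2 fits and leaving out a library were therefore not run, and the unknown depth limits what rows with low means can show. The count of 5 called members was 6 at an adjusted p under 0.1, 4 at 0.01, 2 with a Bonferroni adjustment (Gpx1 and Prdx2) and 0 where a log2 change of at least 1 was also asked for, each by a stricter or looser criterion; the 2 members past that change had unadjusted p-values of 0.112 and 0.637 by the authors' DESeq. It was 7 of 67 with other peroxide and thiol repair genes added, 4 of 30 without Gst and Txndc genes, and 5 under every other alternative run. Among those others, only the minimum overall means and the adjustment over 1 row per symbol recomputed the adjusted p. Alternatives that rescale the ratios keep the authors' adjusted p, and each member had 1 row. The count could therefore not change with scaling or with the choice of row. The members' median log2 ratio of 0.060 turned to -0.097 with equal totals, by the shift of 0.16 that applies to all rows. It was 0.029 when centred on rows with a mean of at least 50, 0.090 among the 43 members with such a mean, 0.050 with the added genes, 0.12 without Gst and Txndc genes, and 0.0096 relative to rows of the same band of level, an alternative chosen after seeing the data. Gpx1, Prdx2, Glrx5, Txnip and Gstm1 kept their direction under each scaling.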

Other observations

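The AP-1 motif TGAGTCA, searched on both strands in the 250 bases before each RefSeq start, was found upstream of 5 members, Glrx, Gstm5, Gstp1, Gstp2 and Prdx1. It was in 6 of 62 windows, against 1466 of the 32851 windows of all genes, or 4.46%. The matches upstream of Glrx are the same site, seen from RefSeq starts 98 and 99 bases after it. The sites of Gstp1 and Gstp2 lie 74 and 89 bases before the start and share all 19 letters shown, aside from their places at chr19:4037974-4037992 and chr19:4042298-4042316 on the minus strand of GRCm38.p6, with the motif in capitals.
Gstp1 site: acgtgtTGAGTCAgcatcc
Gstp2 site: acgtgtTGAGTCAgcatcc
Their log2 ratios were 0.35 and 0.46, and neither gene was called in the authors' deposited table.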
